A study of Mus musculus with 2 samples.

Results

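Transcript levels of 42 genes of antigen presentation, complement and tissue macrophages were described in the adrenal gland of a mouse. The members were chosen by name: gene IDs of both deposited gene tables were matched to symbols, and all 42 listed genes were found among 43346 Ensembl genes. Polyadenylated RNA came from the whole adrenal gland of a female C57BL/6J mouse, an adult aged 10 weeks, with no treatment given in the labels. It was extracted with a kit for fatty tissue and sequenced as 2 libraries. The labels give 1 biological sample for both, which makes them technical replicates, and date replicate 2 later, to 2015. The design therefore holds 1 group and no contrast of conditions, library and date cannot be told apart, and differences between animals are covered by none of the errors given.

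Class I molecules of the major histocompatibility complex (MHC) consist of a heavy chain and β2-microglobulin, and show peptides cut by the proteasome and carried into the endoplasmic reticulum by the TAP transporter. Class II molecules are heterodimers that show peptides from endosomes, mainly on macrophages, dendritic cells and B cells, and their genes depend on the coactivator CIITA. Complement component C1q is made largely by tissue macrophages, which live on signals through the CSF1 receptor. In the adrenal gland such macrophages lie among the steroid-producing cells and along the sinusoids.

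Rounded expected counts totalled 17376660 in replicate 2 and 28267651 in replicate 1. Genes of the mitochondrial genome took 10.6% of them in replicate 2 and 40.1% in replicate 1, and their 15 nuclear copies took 4.66% and 13.0%. Nuclear genes kept 14716667 counts in replicate 2 and 13260900 in replicate 1. TPM (transcript abundances per length, scaled to a fixed sum within a library) are therefore also given rescaled over nuclear genes. The tissue label was met by its markers: 6 markers of the adrenal cortex summed to 35337 TPM in replicate 2 and 7060 TPM in replicate 1, and 5 of the medulla to 4492 and 339 TPM.

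Together the members took 66510 counts in replicate 2 and 37341 counts in replicate 1, which is 0.452% and 0.282% of the nuclear counts. In TPM B2m led them in both libraries. After B2m, the members with the highest TPM in replicate 2 were C3, H2-K1, H2-D1 and Lyz2, and in replicate 1 C3, Lyz2, Ctss and Mpeg1. A TPM of at least 1 was reached by 39 members in replicate 2 and 22 in replicate 1, with 22 in both. Over all Ensembl genes the share that reached it in both libraries was 21%. The 17 members that reached it in replicate 2 alone included all 3 C1q chains, Csf1r, Il34, Tap1, Tap2, Psmb8, Psmb9 and H2-Eb1. Ciita and Timd4 stayed below it in both libraries, and Marco, a scavenger receptor of some macrophage subsets, had 0 counts in both, which allows up to 3 counts in each library. After rescaling over nuclear genes, 36 members reached the minimum in both libraries. These included all genes named above as reaching it in replicate 2 alone, except Tap2 and Psmb8. No share over all genes is given here for a single library, for replicate 2 alone or after rescaling. Those counts therefore have no background to be read against. Among 43294 nuclear genes ranked by TPM, 6 members stood within the first 1000 in replicate 2 and 2 in replicate 1.

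**Figure D1:**
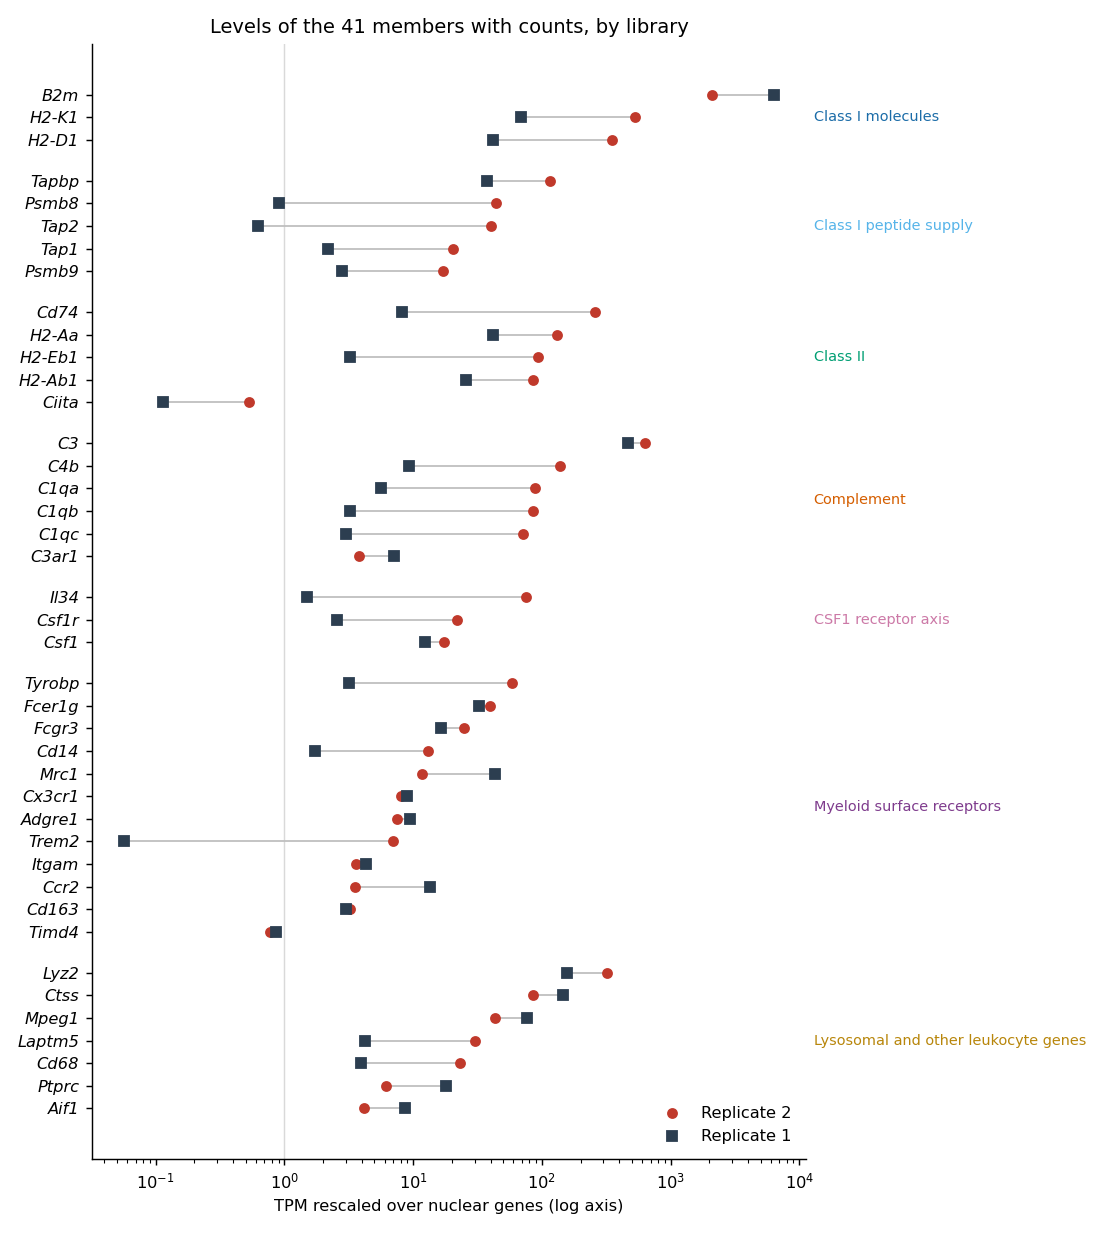
Level of each of the 41 members with counts in replicate 2 (circles) and replicate 1 (squares), as TPM rescaled over nuclear genes on a log axis, grouped by role; the vertical line marks 1. Members of class II presentation and the C1q chains lie to the right in replicate 2, while B2m, Mrc1, Ccr2 and Ptprc, among others, lie to the right in replicate 1.

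The libraries were compared gene by gene on rounded counts scaled with TMM, using a two-sided exact binomial test, adjusted by Benjamini-Hochberg over the 14358 genes whose counts summed to 20 or more. A gene was called at an adjusted p under 0.05 and at least 2-fold. This test covers counting error only and compares 2 libraries, not conditions. Of the 41 members tested (Marco had no counts), 25 were higher in replicate 2, or 61.0%, against a background of 36.5% of all genes tested. Lower in replicate 2 were 4 members, or 9.76%, against a background of 27.8%, namely B2m, Mrc1, Ccr2 and Ptprc. The members' median log2 ratio was 2.27, beside 0.10 over all genes tested.

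GC content moved with these differences. Over 14317 genes with a GC value, which share their libraries and scaling, the log2 ratio and GC content had a Spearman rho of 0.89, and over the 41 members one of 0.84. The 25 higher members had a median GC content of 54.6% (48.9 to 59.5), the 12 not called one of 48.2% (43.0 to 53.3) and the 4 lower ones one of 40.6% (39.2 to 41.3). Of the members tested, all 11 with 54 to 56% GC and all 7 above that were higher in replicate 2, and all 4 below 42% were lower. Genes in general moved the same way in these bands. Over all genes tested the median log2 ratio was 2.34 at 54 to 56% GC, 3.90 above that and -1.91 below 42%. With the trend of the log2 ratio along GC content subtracted, 16 members were higher, against a background of 12.9%, and 3 were lower, against a background of 12%. The members' median then was 0.80, beside -0.03 over all genes. Higher in both fits were 15 members, and none was lower in both. With the GC trend, the length trend, both trends or the GC trend of the leading transcript removed, 10 members kept their higher call each time: Tap2, Psmb8, Psmb9, Cd74, H2-Eb1, C4b, Csf1r, Il34, Trem2 and Cd14. For calls kept in both fits or each time, no share over all genes is given here. These counts therefore have no background to be read against. Called higher, Tapbp turned to lower, and 9 other higher calls and all 4 lower calls ended. New calls were Lyz2 as higher and Fcer1g and Aif1 as lower. A GC value per gene depends on which transcripts it averages: with that of the transcript with the highest mean share, 15 members were higher, against a background of 13%, and 1 was lower, against a background of 11.4%. Removing trends along both GC content and length left 14 higher members (background 12.2%). Lower members numbered 7 with only the length trend removed (background 34.5%), 8 with no fold minimum (background 41.9%), and 0 both at a 4-fold minimum (background 5.74%) and under total-count scaling (background 3.96%). The part of GC content in each difference was not tested.

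**Figure D2:**
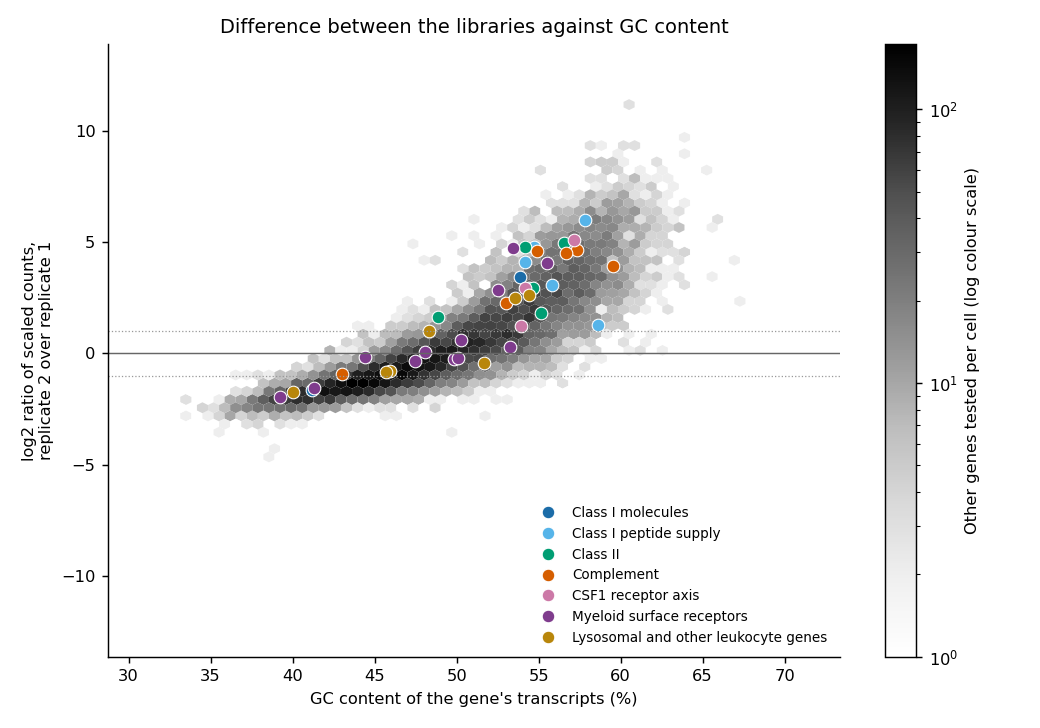
Log2 ratio of replicate 2 over replicate 1 (scaled counts) against GC content of the transcripts in percent, with grey cells shaded by the number of other genes tested and coloured points for the 41 members by role; dotted lines mark 2-fold. The members follow the grey cloud from 39.2% GC (Ccr2) to 59.5% GC (C1qa), and Tapbp lies below it.

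B2m encodes β2-microglobulin, the light chain shared by class I molecules, and stood at 1293 TPM in replicate 2 and 1111 TPM in replicate 1. It ranked 27 and 5 among nuclear genes. On scaled counts it was lower in replicate 2 (log2 ratio -1.63, 95% exact interval -1.66 to -1.60), and with the GC trend removed its ratio was 0.10, so that call ended. The heavy chain gene H2-K1 had 328 TPM in replicate 2 and 12.0 TPM in replicate 1, from 5770 and 563 counts. H2-D1, the other classical heavy chain gene of this strain, had 217 TPM in replicate 2 and 7.30 TPM in replicate 1. In TPM both heavy chains were thus far apart between the libraries, and their light chain was not. Rescaled over nuclear genes, B2m stood at 2097 TPM in replicate 2 and 6352 TPM in replicate 1. So rescaled, H2-K1 stood at 532 and 68.4 TPM and H2-D1 at 352 and 41.7 TPM. H2-K1 was 7.58-fold and H2-D1 10.8-fold higher in replicate 2, and H2-D1 kept its call without the GC trend (1.68), whereas H2-K1 did not (0.88), nor did H2-D1 with the GC value of its leading transcript (0.60). Transcripts of H2-D1 match H2-K1 at 90.6% identity over 66.8% of their length, and other class I genes such as H2-Q4 nearly as well, so the split of reads among them is uncertain.

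H2-K1 lies at chromosome 17, 33996017 to 34000347, on the minus strand of GRCm38, and H2-D1 at 35262730 to 35267499 on the plus strand of the same chromosome, which carries 15 of the 42 members. B2m is at chromosome 2, 122147686 to 122153083. Promoter windows of RefSeq (build GRCm38.p6, 250 bases before to 50 after the start site) were found for 31 members, 9 of them genes of presentation. Presentation genes are known to share an upstream module, the SXY module, with an X2 box of the type TGACG and a Y box, an inverted CCAAT sequence. The letters TGACG followed within 30 bases by ATTGG, searched on both strands, occurred in 4 members, B2m, H2-K1, H2-D1 and H2-Aa, in 0 of the 22 other members with a window, and in 0.913% of all 32851 windows. These stretches are shown because the 4 genes hold the pair at like spacing although their values differ between the libraries; H2-Eb1 is set beside them as a class II gene in which the second element was found and the pair was not. Capitals mark TGACG and ATTGG.
H2-K1, chr17:34000339-34000418, minus strand: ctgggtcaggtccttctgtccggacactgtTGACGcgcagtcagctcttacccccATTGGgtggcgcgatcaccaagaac
H2-D1, chr17:35262963-35263042, plus strand: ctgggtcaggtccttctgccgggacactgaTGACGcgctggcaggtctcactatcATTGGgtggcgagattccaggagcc
B2m, chr2:122147579-122147658, plus strand: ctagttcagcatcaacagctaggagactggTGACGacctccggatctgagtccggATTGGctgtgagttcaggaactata
H2-Aa, chr17:34287847-34287926, minus strand: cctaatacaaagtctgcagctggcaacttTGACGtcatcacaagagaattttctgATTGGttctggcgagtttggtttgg
H2-Eb1, chr17:34305753-34305832, plus strand: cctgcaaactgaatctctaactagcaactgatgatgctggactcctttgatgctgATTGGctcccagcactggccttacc

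GATTGG, a form of the Y box, was matched by letters alone in 7 of the 9 presentation genes, in 3 of the 22 other members (Cd163, Cd68 and Trem2) and in 16.1% of all windows. In H2-K1 and H2-D1 the ATTGG marked above follows a C. Their GATTGG match therefore lies elsewhere in the window and is not the Y box shown. The letters GAGGAA, a core recognised by ETS factors such as the myeloid factor PU.1, occurred in 0 of the 9 presentation genes, in 12 of the 22 others, among them C1qb, C1qc, Itgam, Laptm5, Mrc1, Ptprc and Trem2, and in 28.3% of windows. The interferon response element core, GAAA followed by GAAA with any 2 bases between them, occurred in B2m, Ctss and Aif1 and in 3.44% of windows. These matches describe letters in a window and were not tested for binding.

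Peptides reach class I molecules through 5 further members, all higher in replicate 2. Tap1 and Tap2 encode the subunits of the peptide transporter. Tap1 had 12.6 TPM in replicate 2 and 0.38 TPM in replicate 1, from 415 and 36 counts. Tap2 had 24.8 TPM in replicate 2 and 0.11 TPM in replicate 1, from 806 and 9 counts, a 62.9-fold difference. Psmb8 and Psmb9 encode the inducible catalytic subunits β5i and β1i of the immunoproteasome. Psmb8 had 27.3 TPM in replicate 2 and 0.16 TPM in replicate 1 (313 and 8 counts). Psmb9 had 10.4 TPM in replicate 2 and 0.49 TPM in replicate 1 (151 and 6 counts). In replicate 1 these genes thus rest on few fragments. Tapbp encodes tapasin, which holds empty class I molecules at the transporter, and had 71.1 TPM in replicate 2 and 6.58 TPM in replicate 1. Its log2 ratio of 1.25 became -2.78 with the GC trend removed, at a GC content of 58.6%. The calls of Tap2 (2.26), Psmb8 (2.60) and Psmb9 (2.21) remained without that trend, and the ratio of Tap1 was 0.33.

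Tap1 and Psmb9 are transcribed away from each other from one shared promoter on chromosome 17, with RefSeq starts at 34187556 (Tap1, plus strand) and 34187330 (Psmb9, minus strand), 226 bases apart. It is shown because both genes start from this stretch. Both were called higher in replicate 2, but without the GC trend the call of Psmb9 remained (2.21) and that of Tap1 ended (0.33). A part of the shared stretch in these differences was not tested. Capitals mark CCAAT, the letters of a Y box as read on the Tap1 strand, so the GATTGG match counted above for both genes is 1 site. It is a match of letters only, and the pair of TGACG and ATTGG was found in neither gene.
Tap1 and Psmb9, chr17:34187330-34187556, plus strand: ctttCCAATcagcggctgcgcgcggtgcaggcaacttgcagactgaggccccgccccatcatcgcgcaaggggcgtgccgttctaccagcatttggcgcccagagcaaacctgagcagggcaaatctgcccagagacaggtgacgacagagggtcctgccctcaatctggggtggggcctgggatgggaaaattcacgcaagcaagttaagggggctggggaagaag

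All 5 class II members were higher in replicate 2. Cd74 encodes the invariant chain, which fills the class II groove until it reaches the endosome, and had 159 TPM in replicate 2 and 1.43 TPM in replicate 1 (2119 and 50 counts). H2-Aa, the α chain gene of I-A, had 80.7 TPM in replicate 2 and 7.24 TPM in replicate 1. H2-Ab1, its β chain partner, had 52.9 TPM in replicate 2 and 4.48 TPM in replicate 1. In TPM the ratio of the I-A chains was 1.53 in replicate 2 and 1.62 in replicate 1, whereas in counts it was 1.45 and 3.66; most of H2-Ab1 in replicate 1 was given to a short transcript. H2-Eb1, a β chain gene of I-E, had 57.8 TPM in replicate 2 and 0.57 TPM in replicate 1. C57BL/6 mice are known to lack the I-E α chain, so its protein partner is absent. Ciita, the master coactivator of class II genes, had 0.33 TPM in replicate 2 and 0.02 TPM in replicate 1, from 21 and 4 counts (log2 ratio 1.82, 95% exact interval 0.39 to 3.96, adjusted p = 0.00895 in the exact binomial test). It had the lowest mean TPM of the members with counts. Without the GC trend the calls of Cd74 (1.85), H2-Aa (1.76) and H2-Eb1 (2.88) remained, and those of H2-Ab1 (0.80) and Ciita (-0.59) ended. With the length trend removed instead, H2-Aa was not called (0.086).

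**Figure D3:**
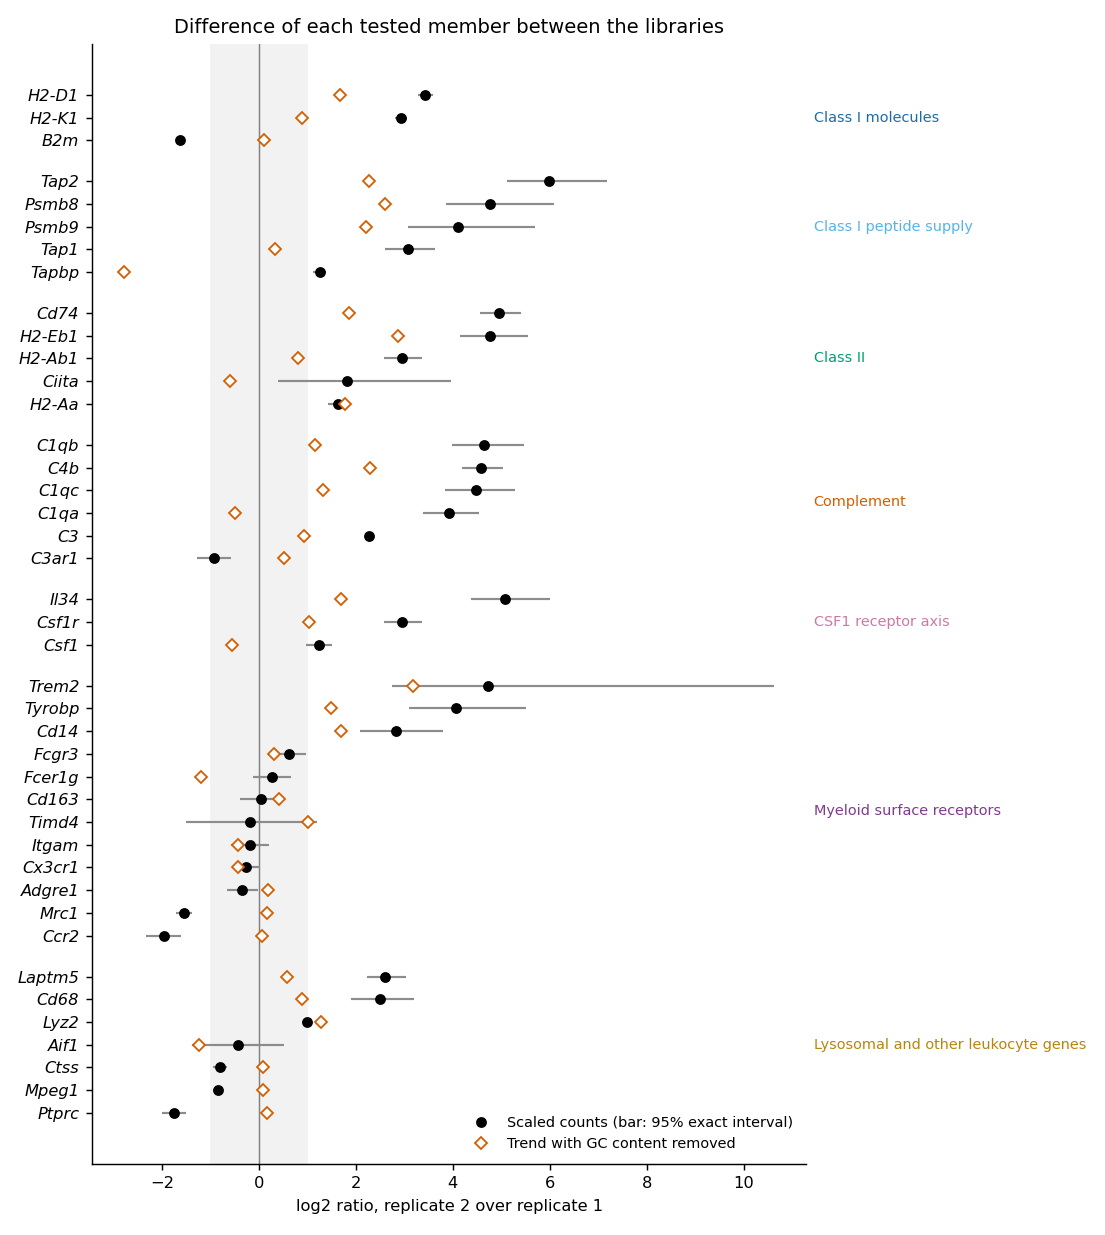
Log2 ratio of replicate 2 over replicate 1 for the 41 members tested, by role, from scaled counts (filled circles, bars are 95% exact intervals for counting error) and with the trend along GC content removed (open diamonds); the grey band marks less than 2-fold. Trem2, with 1 count in replicate 1, has the widest interval, and the diamond of Tapbp lies on the other side of 0 from its circle.

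Complement members were led by C3, the central component whose cleavage marks targets, with 393 TPM in replicate 2 and 81.4 TPM in replicate 1. Its counts of 24275 and 3714 make it the member with the most counts in replicate 2. C3 was 4.84-fold higher on scaled counts (log2 ratio 2.27), and its call ended with the GC trend removed (0.93). It also ended with GC and length trends removed (0.96) and with the GC value of its leading transcript (0.71). After rescaling over nuclear genes its TPM were closer, 638 in replicate 2 and 465 in replicate 1, and the mean transcript length behind them was 5136 bases in replicate 2 and 1561 bases in replicate 1. The C1q chain genes C1qa, C1qb and C1qc lie side by side on chromosome 4 between 136880129 and 136898803, and their products join in one hexameric protein. C1qa had 54.7 TPM in replicate 2 and 0.99 TPM in replicate 1. C1qb had 52.7 TPM in replicate 2 and 0.57 TPM in replicate 1, and C1qc had 44.1 TPM in replicate 2 and 0.53 TPM in replicate 1. Within each library the chains stood close to one another, and their log2 ratios between the libraries were 3.91 for C1qa, 4.64 for C1qb and 4.48 for C1qc. All 3 calls were made on 580, 590 and 558 counts in replicate 2 against 28, 17 and 18 in replicate 1. With the GC trend removed C1qb (1.15) and C1qc (1.31) kept their calls and C1qa, the member with the highest GC content, did not (-0.49). The call of C1qb ended with the GC and length trends removed (0.97), and that of C1qc with the GC value of its leading transcript (0.87).

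C4b, the fourth component, had 85.5 TPM in replicate 2 and 1.63 TPM in replicate 1, and kept its call without the GC trend (log2 ratio 4.58, then 2.28). It matches C4a at 96.0% identity over nearly its whole transcript, so reads of the pair may be split. C3ar1 encodes the receptor for the C3a fragment and had 2.36 TPM in replicate 2 and 1.24 TPM in replicate 1, with a log2 ratio of -0.92 (95% exact interval -1.27 to -0.58) that missed the 2-fold minimum and was 0.52 without the GC trend.

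The CSF1 receptor and its ligands are the survival axis of tissue macrophages. Csf1r had 13.5 TPM in replicate 2 and 0.45 TPM in replicate 1 (642 and 61 counts). Of its ligands, Il34 had 46.1 TPM in replicate 2 and 0.26 TPM in replicate 1, and Csf1 had 10.6 and 2.15 TPM in these libraries. The order of the ligands therefore differed: Csf1 stood at 0.231 times Il34 in replicate 2 and at 8.27 times in replicate 1, where Il34 had 14 counts and posterior mean TPM gave 3.20 times. All 3 genes were higher in replicate 2, at log2 ratios of 2.95 for Csf1r, 5.08 for Il34 and 1.23 for Csf1. Without the GC trend Csf1r (1.04) and Il34 (1.68) kept their calls and Csf1 (-0.55) did not. Within a library, the level of a gene in RNA of a whole gland cannot tell few cells of a type from little RNA per cell.

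Of 13 surface receptors of myeloid cells, 12 were tested, and 3 were higher, 2 lower and 7 not called. The higher ones were Tyrobp, Trem2 and Cd14. Tyrobp encodes the adaptor DAP12 and had 36.4 TPM in replicate 2 and 0.56 TPM in replicate 1. Trem2, a lipid-sensing receptor that signals through DAP12, had 4.31 TPM in replicate 2 and 0.01 TPM in replicate 1, from 53 counts and 1 count, a ratio of scaled counts, with no prior count added, of 39.2 with a 95% exact interval of 6.75 to 1579. Cd14, the coreceptor for bacterial lipopolysaccharide, had 8.06 TPM in replicate 2 and 0.30 TPM in replicate 1. All 3 calls remained with the GC trend removed, at log2 ratios of 1.49, 3.18 and 1.69, and that of Tyrobp ended with the length trend removed as well (0.93).

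Mrc1, the mannose receptor, had 7.19 TPM in replicate 2 and 7.51 TPM in replicate 1. Ccr2, the chemokine receptor of inflammatory monocytes, had 2.18 TPM in replicate 2 and 2.35 TPM in replicate 1. Their TPM thus lay close together between the libraries, but not after rescaling over nuclear genes. So rescaled, Mrc1 stood at 11.7 TPM in replicate 2 and 42.9 TPM in replicate 1, and Ccr2 at 3.54 and 13.4 TPM. Scaled counts were likewise lower in replicate 2, with log2 ratios of -1.55 and -1.95 that became 0.17 and 0.07 without the GC trend. Among those not called, Adgre1, which encodes the macrophage antigen F4/80, had 4.64 TPM in replicate 2 and 1.64 TPM in replicate 1 (log2 ratio -0.34, 95% exact interval -0.65 to -0.03). Cd163, the haemoglobin scavenger receptor, had 2.00 TPM in replicate 2 and 0.53 TPM in replicate 1 (0.04, -0.39 to 0.49). Cx3cr1, the fractalkine receptor, had 4.95 TPM in replicate 2 and 1.58 TPM in replicate 1 (-0.27, -0.56 to 0.02). Rescaled over nuclear genes, Adgre1 stood at 7.53 TPM in replicate 2 and 9.37 TPM in replicate 1. So rescaled, Cd163 stood at 3.24 and 3.03 TPM and Cx3cr1 at 8.03 and 9.03 TPM. Fcgr3, an activating receptor for IgG, and Fcer1g, the signalling chain it uses, had ratios of 0.62 and 0.27. Fcgr3 shares 37.8% of its transcript with Fcgr2b at 96.5% identity. Itgam, which encodes the integrin CD11b, and Timd4, a receptor for phosphatidylserine on long-lived resident macrophages, had ratios of -0.19 and -0.18, the second from 12 and 10 counts. Timd4, at a ratio of scaled counts of 0.889, had an interval of 0.352 to 2.30. These intervals hold for this scaling only: Fcer1g was lower with the GC trend removed (-1.20), with the length trend removed (-1.59) and with both removed (-1.76), and Cd163 (1.18), Fcgr3 (1.75) and Fcer1g (1.40) were higher under total-count scaling.

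Lysosomal and general leukocyte genes split likewise. Lyz2, lysozyme of macrophages and neutrophils, had 197 TPM in replicate 2 and 27.5 TPM in replicate 1, and its log2 ratio of 0.99 lay just under the 2-fold minimum; it was 1.29 without the GC trend. Lyz2 matches Lyz1 at 95.8% identity over 96.1% of its transcript, so reads may be shared. Ctss encodes cathepsin S, the protease that trims the invariant chain, and had 52.6 TPM in replicate 2 and 25.5 TPM in replicate 1. Mpeg1, the pore-forming perforin-2 of macrophages, had 26.9 TPM in replicate 2 and 13.5 TPM in replicate 1. On scaled counts Ctss was at 0.573 and Mpeg1 at 0.556 times in replicate 2, and neither was called; their log2 ratios were each 0.08 without the GC trend. Cd68, a lysosomal glycoprotein, had 14.3 TPM in replicate 2 and 0.69 TPM in replicate 1, and Laptm5, a lysosomal membrane protein of leukocytes, 18.6 and 0.74 TPM. These 2 were higher in replicate 2 (2.49 and 2.60), and neither call remained without the GC trend (0.88 and 0.58), although that of Cd68 did with the GC value of its leading transcript (1.12). Ptprc, which encodes the pan-leukocyte antigen CD45, had 3.79 TPM in replicate 2 and 3.13 TPM in replicate 1 and was lower on scaled counts (-1.75). Rescaled over nuclear genes, Ptprc stood at 6.15 TPM in replicate 2 and 17.9 TPM in replicate 1. So rescaled, Ctss stood at 85.3 and 146 TPM and Mpeg1 at 43.6 and 76.9 TPM. Aif1, the actin-binding protein IBA1, rested on 21 counts in each library.

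Markers of other leukocytes summed to less than those of macrophages in both libraries. The lists differ in length and a sum can rest on few genes, so these sums do not rank cell types. The 8 macrophage markers, all members, were above 0 in both and summed to 126 TPM in replicate 2 and 26.8 TPM in replicate 1, or 204 and 153 TPM after rescaling over nuclear genes. In replicate 2 C1qa gave 54.7 TPM of this sum and Mpeg1 26.9 TPM. Of the 8, 3 were higher (background 36.5%), 1 was lower (background 27.8%) and 4 were not called, with a median log2 ratio of -0.15. T cell markers summed to 2.53 TPM in replicate 2 and 0.49 TPM in replicate 1, with Cd8b1 at 0 in both. Among neutrophil markers, which summed to 4.25 and 1.22 TPM, Ly6g, Mpo and Elane were at 0 in both libraries, and eosinophil markers summed to 0.06 and 0 TPM. NK cell markers summed to 3.97 TPM in replicate 2 and 1.36 TPM in replicate 1, mast cell markers to 10.5 and 3.49 TPM, monocyte markers to 21.1 and 8.12 TPM, and dendritic cell markers to 8.65 and 2.19 TPM. After rescaling over nuclear genes monocyte markers summed to 34.3 TPM in replicate 2 against 46.4 TPM in replicate 1, NK cell markers to 6.44 and 7.77 TPM, mast cell markers to 17.0 and 19.95 TPM and dendritic cell markers to 14.0 and 12.5 TPM, so the order of the libraries turned for the first 3. B cell markers summed to 34.8 TPM in replicate 2, of which Ighm gave 32.6, and to 3.14 TPM in replicate 1. Class II genes are also expressed by B cells and dendritic cells, and the part of those cells in the class II levels was not tested. Erythroid markers moved with the same libraries, at 2973 TPM in replicate 2 and 49.3 TPM in replicate 1, and so did endothelial markers, at 397 and 97.0 TPM, and adipocyte markers, at 2412 and 463 TPM. Rescaled over nuclear genes, erythroid markers stood at 4823 TPM in replicate 2 and 282 TPM in replicate 1, endothelial markers at 644 and 554 TPM and adipocyte markers at 3914 and 2647 TPM. Their part in the members' differences was not tested.

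Further genes of the same pathways gave mixed calls, to be read against the 36.5% higher and 27.8% lower over all genes tested. Calls without the GC trend, here and in the next paragraph, are to be read against 12.9% higher and 12% lower. Of 21 other class I pathway genes, 10 were higher and 4 lower in replicate 2 (median log2 ratio 0.77), and 6 and 4 without the GC trend (median 0.0085). Pdia3, a disulphide isomerase of the peptide loading complex, was lower (274 TPM in replicate 2 and 281 TPM in replicate 1, log2 ratio -1.88), and Calr, the chaperone calreticulin, was not called (408 and 111 TPM, 0.40). Of 12 class II pathway genes tested, 6 were higher and 2 lower, and 5 and 1 without the GC trend; the endosomal protease gene Lgmn was higher (131 TPM in replicate 2 and 12.0 TPM in replicate 1). Of 21 complement genes tested, 9 were higher and 5 lower, and 5 and 0 without the GC trend. Among the higher ones was Clu, which encodes clusterin, an inhibitor of the membrane attack complex (421 TPM in replicate 2 and 96.1 TPM in replicate 1). Without the GC trend its log2 ratio was -0.18. C9, Mbl1 and Mbl2 were at 0 in both libraries.

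Among 29 further myeloid regulators and receptors tested, 16 were higher and 6 lower, with a median of 1.44; with the GC trend removed 5 were higher and 7 lower, with a median of -0.09. Of 23 interferon response genes tested, 5 were higher and 6 lower, with a median of -0.22, and 3 and 1 without the GC trend. Ifitm3, a membrane protein that restricts virus entry, was higher (144 TPM in replicate 2 and 2.52 TPM in replicate 1). Ifnb1 was at 0 in both libraries. Chemokine genes had 1 higher and 1 lower call among 6 tested.

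Ratios of genes within a library were set side by side for 20 pairs of members and their partners. In 13 pairs the same gene stood higher in both libraries, and in 7 the order differed. In 6 pairs the ratios lay within 2-fold of each other. These included H2-K1 over H2-D1, at 1.51 in replicate 2 and 1.64 in replicate 1 (mean log2 0.65 ± 0.08, SD, n = 2), and C1qc over C1qb, at 0.838 and 0.930. The pair H2-Aa over H2-Ab1 was among them in TPM only. Psmb8 over its constitutive counterpart Psmb5 was 0.0759 in replicate 2 and 0.0788 in replicate 1, but the second value rests on 8 Psmb8 counts (95% exact interval 0.032 to 0.169) and was 0.129 from posterior mean TPM. In 10 pairs the ratios lay over 4-fold apart. B2m exceeded H2-K1 3.94-fold in replicate 2 (95% exact interval 3.82 to 4.07, counting error only) and 92.9-fold in replicate 1 (85.5 to 101). C3 exceeded C4b 4.60-fold in replicate 2 and 49.95-fold in replicate 1. Cd74 stood at 1.97 times H2-Aa in replicate 2 and at 0.198 times in replicate 1. Psmb10 over Psmb7, the third inducible subunit over its counterpart, was 0.149 in replicate 2 and 0.00284 in replicate 1, from 7 Psmb10 counts in replicate 1. Tap1 over Tap2 was 0.509 in replicate 2 and 3.45 in replicate 1, the second from 9 Tap2 counts. With posterior mean TPM it was 0.480 and 0.853, so its order no longer differed, and 6 pairs differed in order in place of 7. Cd68 over Adgre1 was 3.09 and 0.421. Cx3cr1 over Ccr2 was 2.27 in replicate 2 and 0.672 in replicate 1.

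**Figure D4:**
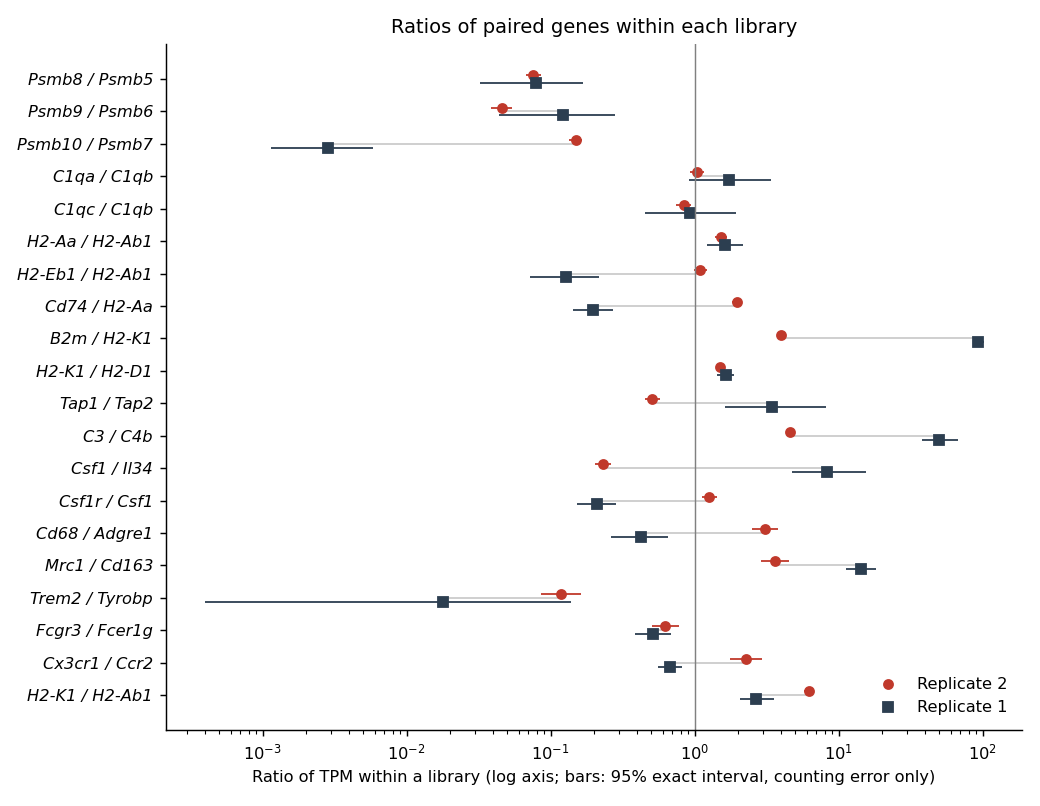
Ratio of TPM of the first gene over the second within replicate 2 (circles) and replicate 1 (squares), on a log axis, with 95% exact intervals for counting error only; the vertical line marks equal levels. The markers of C1qc over C1qb and H2-K1 over H2-D1 lie together, and those of B2m over H2-K1 (3.94 and 92.9) and Csf1 over Il34 (0.231 and 8.27) lie far apart.

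Transcript shares within a gene do not depend on library size. They are shares of TPM, which are scaled by length, so a short transcript weighs more in them than in counts. Of the 31 members with 2 or more annotated transcripts, 24 had at least 20 counts in both libraries. The same transcript led in 15 of them and different ones in 9, which were Aif1, C3, Cd163, Csf1, Fcgr3, H2-Ab1, Itgam, Ptprc and Tap1. No share over all genes with 2 or more transcripts is given here, so these counts have no background to be read against. Ptprc was nearly tied in replicate 1 (32.6% and 31.7%), and by posterior mean shares its leader was the same in both libraries, which left 8 with different leaders. In those 9 the transcript that led in replicate 2 was protein-coding in 9, and the one that led in replicate 1 in 5. For Itgam the leader of replicate 1 had no type in the annotation used, so whether it is coding is not known here. The leader of replicate 2 was the longer one in 8. C3-201, the full-length transcript of 5136 bases, took 100% of C3 in replicate 2 and 21.99% in replicate 1, where C3-203, of 554 bases, took 78.0%. In counts C3-201 led in replicate 1 as well, with 2941 against 773 for C3-203. H2-Ab1-201, the coding transcript, took 95.2% of H2-Ab1 in replicate 2 and 12.6% in replicate 1, where H2-Ab1-203, a transcript with a retained intron, took 85.9%. Fcgr3-201 took 93.8% in replicate 2 and 0% in replicate 1, where all counts were given to Fcgr3-203, which retains an intron. Retained-intron transcripts led in both libraries for C4b (C4b-203 at 78.8% in replicate 2 and 92.2% in replicate 1) and Tap2. C4b-203 has 749 bases. In counts the coding C4b-201 exceeded it in replicate 2 (1155 against 470) but not in replicate 1 (21.8 against 28.0). Coding transcripts led in both libraries for Cd74 (Cd74-201 at 78.2% and 89.2%), H2-Aa, H2-K1, H2-D1 and Csf1r. Gene TPM divide by the mean length of these transcripts, so the TPM of C3 and H2-Ab1 carry the difference in shares, while their counts do not.

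**Figure D5:**
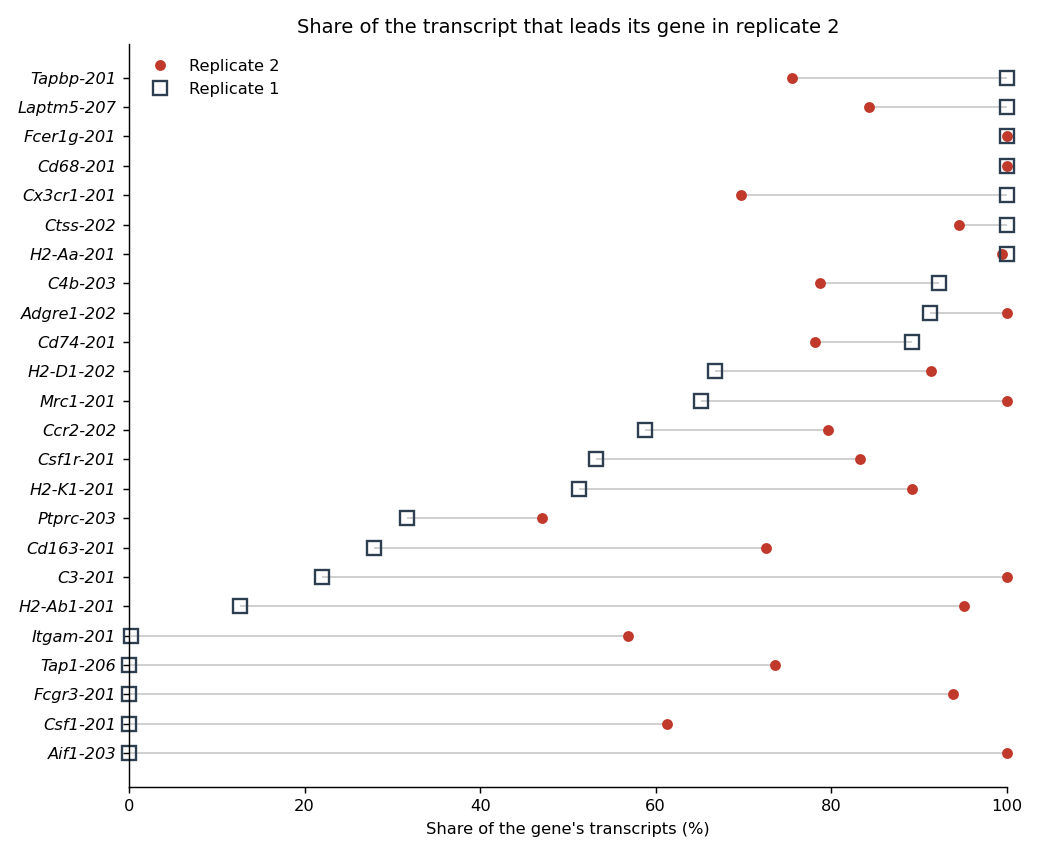
Share, in percent of its gene, of the transcript that led in replicate 2, in replicate 2 (filled circles) and replicate 1 (open squares), for the 24 members with 2 or more transcripts and at least 20 counts in both libraries. The markers of Fcer1g-201, Cd68-201 and H2-Aa-201 coincide near 100%, and those of C3-201 (100% and 21.99%), H2-Ab1-201 (95.2% and 12.6%) and Fcgr3-201 (93.8% and 0%) lie far apart.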

How the data were processed

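Each of the 2 libraries came with gene-level and transcript-level tables. Expected counts deposited by the authors are estimated fragment numbers, which can be fractional, and were rounded per gene here. TPM, per the file headers, are scaled by length to a fixed sum per library. FPKM values in the deposited tables served only as an alternative minimum for detection. Posterior mean TPM and its bounds, deposited by the authors, were treated as a score and used as an alternative for gene pairs and transcript shares. The deposited transcript tables give each transcript's share of its gene in percent. Per the text notes deposited with the files, the assembly was mm10 with GENCODE annotation M4, and no aligner, counter or version is named (not given in the sources used here).

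Among 69691 rows of a gene table, 43346 were Ensembl genes; the rest had counts of 0 and were dropped. A symbol was found for 42462 genes. Coordinates and GC content were taken from GENCODE M21, a later release on the same assembly, in which 101510 of 103639 transcripts were found. GC content per gene is the length-weighted mean over the transcripts of the deposited tables found there. Nuclear copies of mitochondrial genes had to match a mitochondrial transcript at 90% identity along 50% or more of their length, and copies of members at 90% along 30% or more of the longest transcript (BLAST 2.17.0). Promoter windows came from RefSeq, and the motifs were chosen from textbook knowledge after the values were known.

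Library sizes of the rounded counts were set by the TMM method of edgeR 4.0.16 (R 4.3.3). For each gene whose counts summed to 20 or more, an exact binomial test (two-sided, given that sum) compared the libraries, with Benjamini-Hochberg adjustment over all genes tested. Log2 ratios are of replicate 2 over replicate 1 with a prior count of 0.5. With 2 technical libraries of 1 sample no spread between samples can be estimated, so edgeR's quasi-likelihood test was not used, and p-values and intervals cover counting error only. TMM takes most genes to be unchanged; these libraries depart from that, and every direction holds for this scaling. The GC trend was a lowess curve of span 0.3 over all genes tested (statsmodels 0.14.6). The comparison was tested on simulated data with known changes. All 42 members, the genes of the 20 pairs and at most 2 genes of each pathway list, those with the highest mean TPM, were named; genes listed at 0 and single cell type markers were named besides, after their values were seen, and some genes that the rule names are not reported here. The members and lists were chosen with earlier results of these data known.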

Additional observations from a re-analysis of the deposited data

How the results depend on the processing

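No paired analysis was possible because the libraries form 1 group and no groups share replicate numbers. Detected members numbered 22, and 36 with TPM rescaled over nuclear genes, 11 at a minimum of 5 TPM, and 22 to 39 with 1 library left out. DESeq2 size factors and leaving out mitochondrial genes and copies left the call of each of the 41 members as it was, and ratios of nuclear TPM turned the direction of no called member. Members higher numbered 16 with the GC trend removed, 14 with GC and length trends removed and 15 with the GC value of the leading transcript, an alternative chosen after seeing the data. Members lower numbered 0 under total-count scaling and at a 4-fold minimum, 7 with the length trend removed, 8 with no fold minimum and 1 with the GC value of the leading transcript. The members' median was 3.41 under total-count scaling (1.24 over all genes, against 0.10), 0.80 without the GC trend, 1.15 without the length trend, 0.59 without both, 0.45 with the leading transcript's GC value and 1.66 from nuclear TPM; a shift of over 0.5 counted as moved. Among called members and those newly called, the sign turned with GC, with GC and length, and with the leading transcript's GC value removed for Tapbp (-2.78, -2.99, -2.19), Ciita (-0.59, -0.34, -0.66), C1qa (-0.49, -0.71, -0.52), Csf1 (-0.55, -0.45, -0.094) and Ccr2 (0.072, 0.19, 0.12). It turned with the first pair of these for Mrc1 (0.17, 0.30) and Ptprc (0.16, 0.23), and with the first and last for B2m (0.10, 0.030). Fcer1g turned with GC (-1.20), length (-1.59) and both (-1.76), and stood at -0.94 with the leading transcript's GC value. With the leading transcript's GC value alone it turned for H2-K1 (-0.14), Tap1 (-0.42), H2-Ab1 (-0.58) and Laptm5 (-0.30). C3ar1, Adgre1, Mpeg1 and Timd4, not called in any of these, turned to above 0 in all 3 GC settings. The cause was not tested. Of 20 gene pairs, 2 moved with posterior mean TPM and 7 with expected counts, and 5 of 24 transcript shares moved with posterior mean shares. Counts under 20 in replicate 1 limit Tap2, Psmb8, Psmb9, Ciita, C1qb, C1qc, H2-Eb1, Il34, Tyrobp, Trem2, Cd14 and Timd4.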
